A study of Mus musculus with 3 samples.

Results

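The 7 genes described here encode the inhibitors of cyclin-dependent kinases (CDKs), 3 of the Cip/Kip family (*Cdkn1a*, *Cdkn1b* and *Cdkn1c*) and 4 of the INK4 family (*Cdkn2a*, *Cdkn2b*, *Cdkn2c* and *Cdkn2d*). They were taken by symbol from the 32287 features counted, and all 7 were measured in all 3 libraries. The cells were single cells of mouse retina, sorted for tdTomato and profiled by droplet RNA sequencing, and the groups (control, CCA and CCANT) had 1 library each. All mice were *Glast*-CreERT2; R26-CAG-LSL-Tdt, in which tamoxifen (75 mg/kg, from P20) switches on the red reporter in Müller glia (MG), and all eyes received AAV7m8 vectors at P28 and were harvested at P51. The control eyes received a virus with GFP and an shRNA against LacZ under the GFAP promoter, which is active in glia. The CCA eyes received a vector that carries cyclin D1 and an shRNA against p27, the product of *Cdkn1b*, under the same promoter, mixed 9 to 1 with the GFP virus. The CCANT eyes received the same mix, then NMDA, which injures inner retinal neurons, at P35 and trichostatin A (TSA), a histone deacetylase inhibitor, at P37. Each library pooled 2 to 4 retinas.

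CDK inhibitors hold back the G1 phase of the cell cycle. INK4 proteins bind CDK4 and CDK6 and keep D-type cyclins off them, whereas Cip/Kip proteins bind assembled cyclin-CDK complexes and inhibit CDK2 in particular. Cip/Kip proteins also help D cyclins to assemble with CDK4, so cyclin D can take p27 away from CDK2. Adult mouse MG are quiescent, and p27 is known as a brake on their return to the cell cycle.

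There were 3718 control, 3656 CCA and 2852 CCANT MG, and the median cell of each held 24231, 20770 and 20486.5 unique molecules (UMIs). The levels are given in counts per 1000000 (CPM), the UMIs of a gene scaled by those of all genes, summed over the MG of a library, with exact 95% Poisson intervals. *Glul*, the glutamine synthetase gene that marks MG, was at 6695, 5828 and 5403 CPM in them and at 321 to 344 CPM in rods. With 1 library per group, no p-value was computed and the intervals cover counting error only. The libraries differed in sex: 3474 control MG carried Y-linked UMIs and none carried *Xist* alone, 3632 CCA MG carried *Xist* alone and none Y-linked UMIs, and the CCANT library held 1011 and 1519 MG of the 2 kinds. Treatment and sex could thus not be told apart between control and CCA. The MG also lay in different clusters, made without the 7 genes. Clusters led by *Iigp1* and other interferon-induced genes (cluster 4) and by *Shisal2b* and *Pebp4* (cluster 5) held 44.6% and 46.8% of control MG, whereas clusters led by *Tff2* and *Car14* (cluster 1) and by the immediate-early gene *Egr3* and *Socs3* (cluster 2) held 41.4% and 31.0% of CCA MG and 45.5% and 46.6% of CCANT MG. Pairs of libraries shared 2 to 8 cell barcodes among their MG.

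*Cdkn1b*, the shRNA target, was the most abundant of the 7 in control MG. Control MG held 226 CPM (223 to 229), CCA MG 84.8 CPM (82.8 to 86.9) and CCANT MG 106 CPM (104 to 109). It was therefore 2.67-fold lower (2.60 to 2.74) in CCA and 2.13-fold lower (2.07 to 2.19) in CCANT MG than in the control, and 1.26-fold higher (1.21 to 1.30) in CCANT than in CCA MG. *Cdkn1b* lies at chr6:134920401-134925513 on the plus strand (GRCm38). The counts are of transcripts, so p27 protein was not measured.

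**Figure D1:**
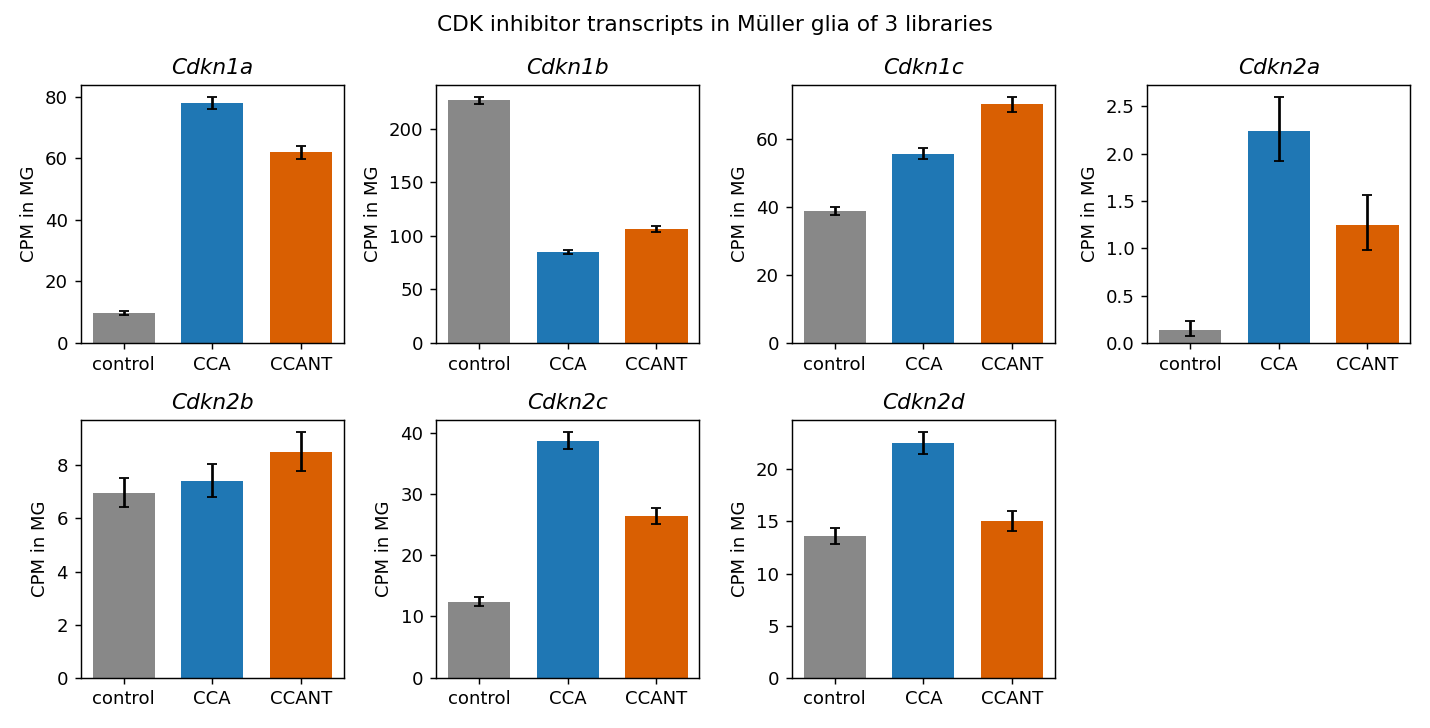
Level of each of the 7 genes in MG, in CPM on a y axis that starts at 0, for the control (grey), CCA (blue) and CCANT (orange) libraries, with exact 95% Poisson intervals as bars and 1 library per group. *Cdkn1b* is highest in the control at 226 CPM, the other 6 are lowest there (with overlapping intervals for *Cdkn2b* in control and CCA and for *Cdkn2d* in control and CCANT), and *Cdkn1c* and *Cdkn2b* are highest in CCANT.

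The *Cdkn1b* level was lower than in the control in each cluster of MG that could be compared. After all MG had been thinned to 5000 UMIs, 66.8% of control, 34.5% of CCA and 39.3% of CCANT MG held a *Cdkn1b* UMI. The variance of the UMIs per cell was close to their mean, with ratios of 1.08, 1.07 and 1.19, and cells with none made up 65.5% of CCA MG where a Poisson distribution of that mean gives 64.4%. In CCANT MG they made up 60.75% where it gives 58.3%. At means of 0.44 and 0.54 UMIs per cell, such counts may not show a minority of MG with a control level. Within clusters the level in CCA MG was nearly flat, with 84.5 CPM in cluster 1, 85.5 CPM in cluster 2, 79.8 CPM in cluster 4, 85.6 CPM in cluster 5 and 94.2 CPM in cluster 11, which was led by the proliferation genes *Cenpf* and *Top2a*. Control MG of clusters 1, 2, 4 and 5 held 232, 169, 219 and 237 CPM, so in each of the 4 the control level lay above those of both other libraries wherever at least 50 cells could be compared. By UMIs of GFP at the thinned depth, *Cdkn1b* was 229, 226 and 226 CPM in control MG with 0, 1 and 2 or more. In CCA MG it was 88.6 CPM (84.3 to 93.0) in cells with none and 52.8 CPM (28.9 to 88.6) in the 53 cells with 1, and only 5 cells held more.

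**Figure D2:**
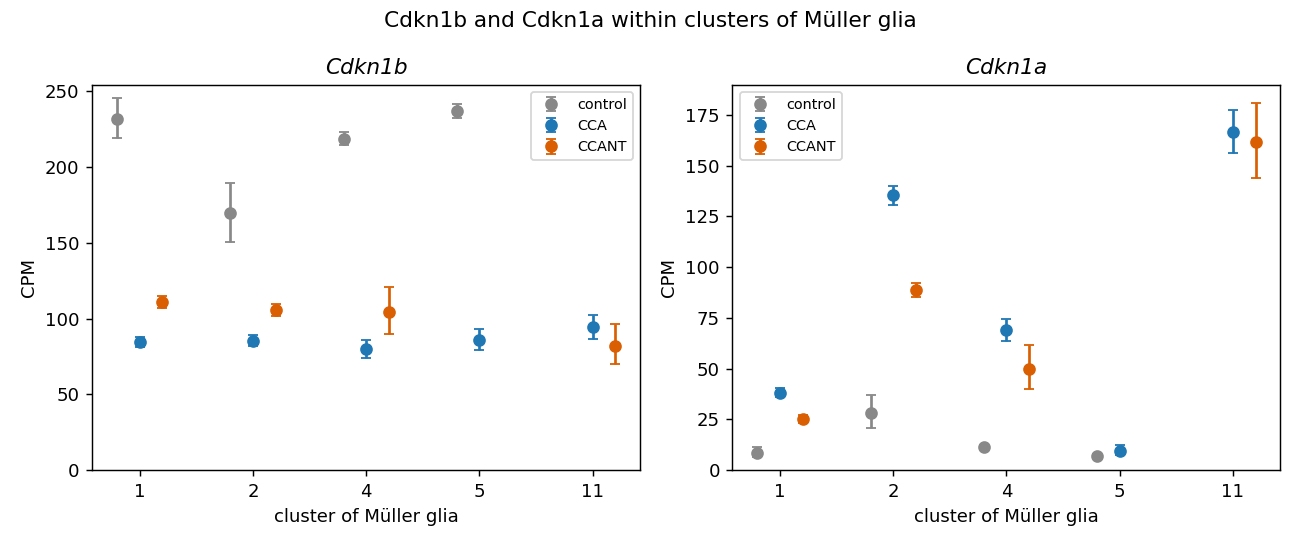
Levels of *Cdkn1b* (left) and *Cdkn1a* (right) in CPM, y axis, within the clusters of MG, x axis, for the control (grey), CCA (blue) and CCANT (orange) libraries, each point a sum over at least 50 cells with its exact 95% Poisson interval. *Cdkn1b* in CCA MG stays between 79.8 and 94.2 CPM in all 5 clusters, whereas *Cdkn1a* in CCA MG runs from 9.69 CPM in cluster 5 to 166.5 CPM in cluster 11.

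*Cdkn1a* encodes p21, the Cip/Kip inhibitor induced by p53, and its gene lies at chr17:29090976-29100727 on the plus strand. Control MG held 9.73 CPM (9.11 to 10.4) of it, CCA MG 77.9 CPM (76.0 to 79.9) and CCANT MG 61.9 CPM (59.9 to 63.9), and the 3 intervals do not overlap. These are 8.01-fold (7.47 to 8.59) and 6.36-fold (5.92 to 6.84) higher levels than in the control. In CCA MG the *Cdkn1a* level thus came close to that of *Cdkn1b*, 77.9 against 84.8 CPM, but levels of different genes also depend on how well each is captured. At the thinned depth 4.10% of control, 19.6% of CCA and 15.2% of CCANT MG held a *Cdkn1a* UMI. Rods, which carried little of it, gave 0.221%, 3.57% and 2.11% at the same depth. Only 452 of 852, 673 of 1363 and 663 of 1282 rods reached that depth, as their medians were 5071.5, 4970 and 5049 UMIs per cell.

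Unlike *Cdkn1b*, the *Cdkn1a* transcripts sat in a subset of MG. The 10% of CCA MG with the most *Cdkn1a* UMIs held 69.6% of them, and 1 CCA cell alone held 171. The variance was 3.20 times the mean in thinned CCA MG, and 80.4% of cells held none where a Poisson distribution of that mean gives 67.0%. The level differed between clusters of the same library. CCA MG held 135 CPM in cluster 2, 68.9 CPM in cluster 4 and 38.2 CPM in cluster 1. In cluster 5, to which 46.8% of control MG belonged, the 322 CCA MG held 9.69 CPM (7.52 to 12.3), against 7.04 CPM (6.28 to 7.88) in the control MG of that cluster. These same CCA MG held 85.6 CPM of *Cdkn1b*, so in CCA MG the 2 genes did not move together across clusters. In the other libraries they tended to run in opposite directions. Control MG of clusters 1, 2, 4 and 5 held 8.68, 28.2, 11.6 and 7.04 CPM of *Cdkn1a*, the reverse order of their *Cdkn1b*. In CCANT MG, cluster 11 held 162 CPM of *Cdkn1a* and 82.2 CPM of *Cdkn1b*, against 25.3 and 111 CPM in cluster 1. The clusters were built from other genes of the same cells, so this is a description of which cells hold the transcripts.

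Across bins of single CCA MG, the *Cdkn1a* level also did not follow the number of *Cdkn1b* UMIs. At a mean of 0.44 *Cdkn1b* UMIs per cell, these bins sort cells in large part by sampling, so a relation could be missed. MG with 0, 1, 2 and 3 or more *Cdkn1b* UMIs at the thinned depth held 83.6, 72.8, 73.0 and 100 CPM of *Cdkn1a*, and the last value rests on 46 cells with an interval of 63.4 to 150 CPM. In CCANT MG the values went from 65.1 CPM in cells with no *Cdkn1b* UMI to 32.4 CPM (16.8 to 56.7) in those with 3 or more, and in control MG from 12.97 to 5.67 CPM (2.93 to 9.91), the latter from 12 UMIs. At a thinned depth of 8000 UMIs the control values were 13.4, 12.9, 7.25 and 8.78 CPM.

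Stress transcripts stood beside *Cdkn1a* in these libraries. The 13 immediate-early and dissociation genes summed to 3955, 7204 and 7069 CPM in control, CCA and CCANT MG, and 6 of the 13 were at least 2-fold higher in CCA than in control MG, with none lower, beside 4.05% and 0.602% of all 15105 genes tested. *Nr4a1* (9.91 against 53.8 CPM) and *Atf3* (23.8 against 99.0 CPM) had the largest ratios and *Hspa1b* (12.9 against 18.9 CPM) and *Jun* (963 against 1440 CPM) the smallest. Their sum went from 6798 CPM in CCA MG without *Cdkn1a* UMIs to 8564 CPM in those with 5 or more. These bins were not thinned. The cells with 5 or more were deeper (medians of 23002 against 20612.5 UMIs) and more often cycling (30.3% against 15.6%). Among MG whose immediate-early sum lay between the 25th and 75th percentile of control MG, *Cdkn1a* was 9.45 CPM in 1858 control, 56.6 CPM in 641 CCA and 40.5 CPM in 447 CCANT cells, and *Cdkn1b* was 228.0, 86.3 and 116 CPM. This range was chosen after the data were seen. The part of stress transcripts in the *Cdkn1a* difference was otherwise not tested.

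*Cdkn1c* encodes p57, the third Cip/Kip member, from an imprinted gene at chr7:143458339-143461050 on the minus strand. It held 38.7 CPM (37.5 to 39.99) in control MG, 55.6 CPM (54.0 to 57.3) in CCA MG and 70.1 CPM (68.0 to 72.2) in CCANT MG, so it was highest in CCANT, 1.26-fold (1.21 to 1.31) above CCA. The shares of MG with a UMI at the thinned depth were 16.9%, 20.8% and 25.8%. Bipolar cells, in which *Cdkn1c* was near the carry-over level, gave 2.31%, 3.25% and 3.67%.

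Among the INK4 genes, *Cdkn2c* (p18; chr4:109660876-109667189, minus strand) differed between libraries with ample counts. The level was 12.4 CPM (11.7 to 13.2) in control MG, 38.8 CPM (37.4 to 40.2) in CCA MG and 26.4 CPM (25.1 to 27.7) in CCANT MG, which made it 3.12-fold (2.92 to 3.34) and 2.13-fold (1.97 to 2.30) higher than in the control. *Cdkn2d* (p19 of the INK4 family; chr9:21288410-21291407, minus strand) held 13.6, 22.5 and 15.03 CPM, 1.66-fold (1.54 to 1.78) higher in CCA and 1.11-fold (1.02 to 1.20) higher in CCANT than in control MG. Without the 1% of MG with the most *Cdkn2d* UMIs, its log2 ratios were 0.48 against 0.73 in CCA and 0.002 against 0.14 in CCANT. *Cdkn2b* (p15, chr4:89306299-89311039, minus strand) held 6.96, 7.42 and 8.50 CPM, and the interval of its CCA to control ratio of 1.07 (0.952 to 1.19) includes 1. Its level in CCANT MG was 1.22-fold (1.09 to 1.37) that in control MG and 1.15-fold (1.02 to 1.29) that in CCA MG. *Cdkn2a* (chr4:89274471-89294653, minus strand), the neighbour of *Cdkn2b* across a gap of 11645 bases, was the rarest, with 13 UMIs in all control, 176 in all CCA and 76 in all CCANT MG, or 0.138, 2.24 and 1.24 CPM. The CCA to control ratio of *Cdkn2a* was 16.3 with a wide interval of 9.28 to 31.2. It encodes p16 and the p53 activator Arf from 2 start sites, and counts per gene do not separate these transcripts.

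At a 2-fold bound, *Cdkn1a* and *Cdkn2c* were higher in CCA than in control MG and *Cdkn1b* was lower, beside 4.05% of 15105 genes higher and 0.602% lower. *Cdkn2a* was past the bound as well, but it passed the filter on low counts (1 CPM on average) only through the CCA library, so that call was fixed by the filter. Against the control, CCANT MG again had *Cdkn1a* and *Cdkn2c* higher and *Cdkn1b* lower, beside 3.98% and 1.36% of 15027 genes. *Cdkn2a* did not pass there. The CCANT call of *Cdkn2c* (1.09, log2) was close to the bound. It fell under it without cycling MG (0.89), without the 1% of MG with the most *Cdkn2c* UMIs (0.99) and in the middle immediate-early range (0.80). The CCANT call of *Cdkn1b* (-1.09) was also under the bound in that range, at -0.97. None of the 7 differed 2-fold between CCANT and CCA MG, where 0.587% of 15158 genes were higher and 1.35% lower. The median log2 ratio of the members, *Cdkn2a* among them, was 0.73 in CCA over control, beside 0.06 over all 15105 genes. CCA and CCANT share the control library, so their ratios are not independent.

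Cycling MG differed from other MG in some of the members and not in others. A cell with a UMI of *Mki67* or *Top2a*, genes of dividing cells, was counted as cycling: 39 control MG (1.05%), 715 CCA MG (19.6%) and 260 CCANT MG (9.12%). Of these, 34 control, 406 CCA and 161 CCANT cells held a single such UMI. *Cdkn1b* was 243 CPM (215 to 274) in the 39 control cells against 226 CPM in the other control MG. In CCA MG, *Cdkn2c* and *Cdkn2d* were at least 2-fold higher in cycling than in other cells, beside 4.86% of 15278 genes. In CCANT MG these 2 and *Cdkn1a* were, beside 4.56% of 15073 genes. *Cdkn2a* was past the bound in both libraries, but it passed the filter on low counts only through the cycling cells. In cycling CCANT MG 5 cells held 25.1% of the *Cdkn1a* UMIs, and 1 of them 46. With at least 2 UMIs as the bound for cycling, *Cdkn1c* was also past 2-fold, at log2 ratios of 1.25 in CCA and 1.03 in CCANT, against 0.67 and 0.53, as was *Cdkn1a* in CCA, at 1.07 against 0.58. With MG thinned before the split, *Cdkn2b* was past it, at 1.26 and 1.24 against 0.29 and 0.03. No member was 2-fold lower, beside 0.19% and 0.657% of genes.

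*Cdkn2c* held 80.9 CPM in cycling and 27.4 CPM in other CCA MG, a ratio of 2.95 (2.74 to 3.17), and 56.0 against 22.97 CPM in CCANT MG. *Cdkn2d* held 47.3 against 15.9 CPM in CCA MG, a ratio of 2.98 (2.71 to 3.28), and 34.5 against 12.8 CPM in CCANT MG. Of the 176 *Cdkn2a* UMIs in CCA MG, 151 were in the 715 cycling cells, at 9.07 CPM (7.68 to 10.6) against 0.403 CPM (0.261 to 0.596) in the others. *Cdkn1a* held 105 against 70.5 CPM in CCA and 118 against 55.3 CPM in CCANT MG. *Cdkn1c* held 78.6 against 49.5 CPM and 96.8 against 67.0 CPM. *Cdkn1b* held 86.0 CPM (81.6 to 90.6) in cycling and 84.5 CPM (82.2 to 86.8) in other CCA MG, a ratio of 1.02 (0.960 to 1.08), and in CCANT MG it was 1.14-fold lower in cycling cells, 94.3 against 108 CPM.

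The levels of *Cdkn2c* and *Cdkn2d* were highest in the few MG with many proliferation UMIs. CCA MG with 0, 1, 2 to 4, 5 to 19 and 20 or more UMIs of *Mki67* and *Top2a* together (2941, 406, 123, 92 and 94 cells) held 27.4, 33.2, 32.1, 69.5 and 262 CPM of *Cdkn2c*. Over the same bins *Cdkn2d* held 15.9, 14.2, 13.4, 28.1 and 180 CPM. *Cdkn2a* held 0.403, 0.893, 2.67, 18.6 and 31.7 CPM. In CCA MG all 3 were already higher in cells with 5 to 19 UMIs than in those with none, whereas *Cdkn2d* in CCANT MG was 14.3 CPM (6.85 to 26.3) in that bin and 12.8 CPM in the first. *Cdkn1c* held 49.5, 45.7, 58.8, 96.1 and 177 CPM, and *Cdkn1a* 70.5, 69.2, 119, 97.7 and 201 CPM. *Cdkn1b* held 84.5, 87.3, 95.1, 82.3 and 77.2 CPM in CCA MG. In CCANT MG *Cdkn1b* was lower in the bins with more UMIs, at 108, 105, 88.5, 69.96 and 78.3 CPM, and the intervals of the first bin (105 to 111) and the last (62.4 to 96.9) do not overlap. *Cdkn1a* in CCANT MG was already higher in the 161 cells with a single UMI, at 101 CPM (91.5 to 112) against 55.3 CPM in those with none, and held 94.7, 97.1 and 209.6 CPM in the next bins. *Cdkn2b* held 7.08, 7.59, 6.87, 7.96 and 13.5 CPM (9.77 to 18.2), from 43 UMIs in the last bin. The last bin of CCA MG also had deeper cells, with a median of 34711.5 UMIs against 20428 in the first, and CPM corrects for depth only on average. In CCANT MG the last bin (32 cells) held 205 CPM of *Cdkn2c* and 130 CPM of *Cdkn2d*.

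**Figure D3:**
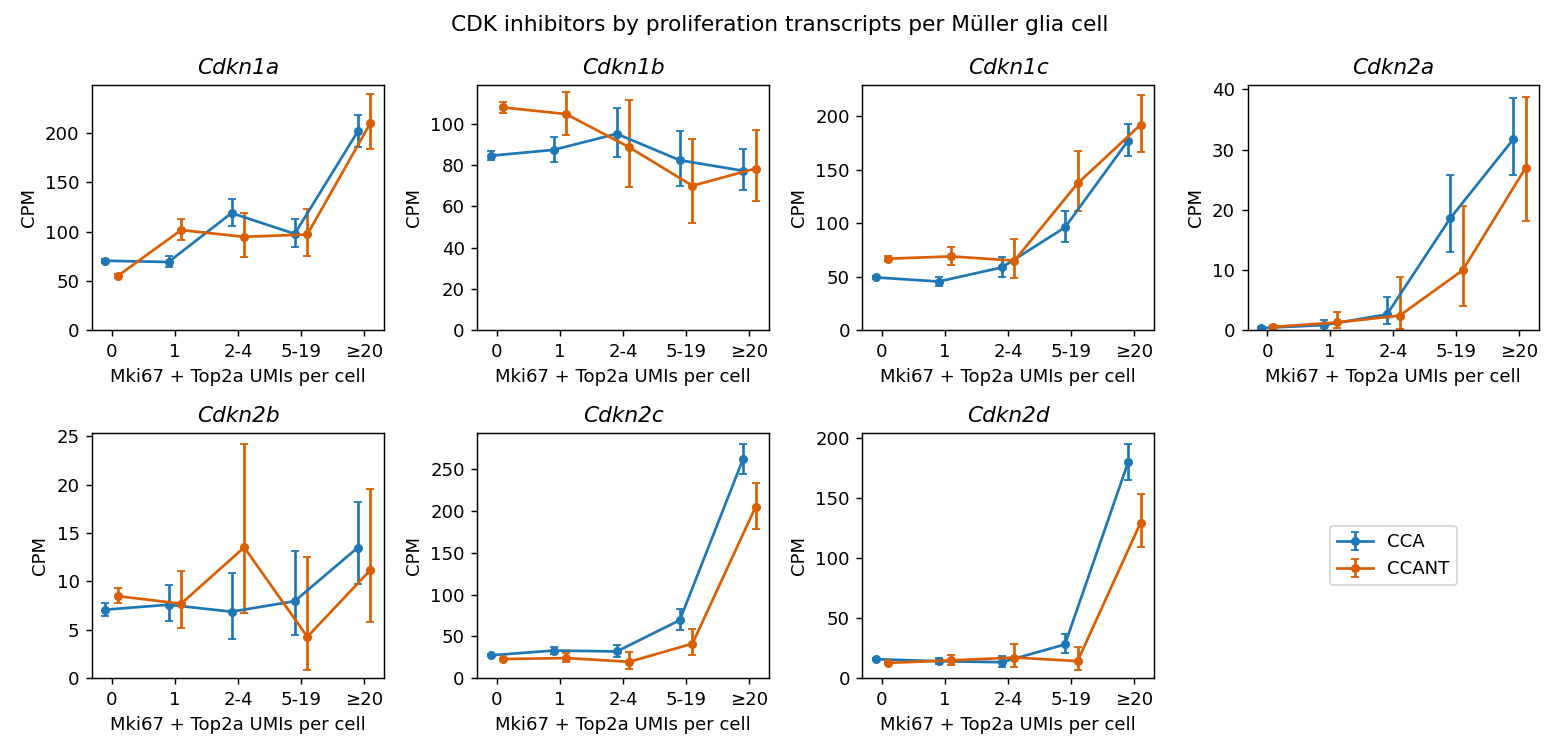
Level of each gene in CPM, y axis, by the number of *Mki67* and *Top2a* UMIs of a cell, x axis, in MG of the CCA (blue) and CCANT (orange) libraries, with exact 95% Poisson intervals for the sum over each bin. *Cdkn2c* and *Cdkn2d* reach 262 and 180 CPM in CCA MG with 20 or more UMIs, whereas *Cdkn1b* stays between 77.2 and 95.1 CPM in CCA MG and goes from 108 to 78.3 CPM between the first and last bin in CCANT MG.

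Among MG with at least 5 such UMIs, those with *Ccnb1*, the cyclin of mitotic entry, held more *Cdkn2c* and *Cdkn2d* than those without. In the 129 CCA cells with *Ccnb1* UMIs, *Cdkn2c* was 233 CPM and *Cdkn2d* 162 CPM, against 78.8 and 22.2 CPM in the 57 cells without. The 37 CCANT cells with *Ccnb1* UMIs held 193 and 118 CPM, against 45.8 and 22.1 CPM in the 25 without. *Cdkn1c* likewise was 172 against 81.7 CPM in CCA cells, and *Cdkn1a* was 177 CPM (163 to 191) against 126 CPM (108 to 146) in CCA and 197 against 107 CPM in CCANT cells. *Cdkn2a* in CCA cells was 29.9 CPM (24.6 to 36.1) against 18.6 CPM (12.2 to 27.3), from only 110 and 26 UMIs. Its intervals overlap, as do those of *Cdkn2b* at 12.2 CPM (8.94 to 16.4) against 9.31 CPM (4.96 to 15.9). *Cdkn1b* was 87.1 CPM (77.8 to 97.2) with and 58.0 CPM (46.1 to 72.1) without *Ccnb1* UMIs. Cells with *Ccnb1* were somewhat deeper, at medians of 29909 and 24676 UMIs in CCA, and this split was chosen after the data were seen.

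Promoter windows of 300 bases, 250 before and 50 after the start, were read from RefSeq on GRCm38.p6 for 6 of the 7 genes, with 9 windows in all and none for *Cdkn1c*. Those of *Cdkn2a* and *Cdkn2b*, which are neighbours with unlike values, and those of *Cdkn2c* and *Cdkn2d*, which were both highest in MG with many proliferation UMIs, are shown. Each is written 5′ to 3′ on the minus strand, and capitals mark matches on either strand to E2F letters (TTTCCCGC, TTTGGCGC, TTTCGCGC or TTTGCCGC), GC boxes (GGGCGG) or CCAAT boxes (CCAAT). AP-1 letters (TGACTCA or TGAGTCA) and TATA boxes (TATAAA) were searched as well and were in none of the 9 windows.
*Cdkn2a*, upstream start, chr4:89294570-89294869: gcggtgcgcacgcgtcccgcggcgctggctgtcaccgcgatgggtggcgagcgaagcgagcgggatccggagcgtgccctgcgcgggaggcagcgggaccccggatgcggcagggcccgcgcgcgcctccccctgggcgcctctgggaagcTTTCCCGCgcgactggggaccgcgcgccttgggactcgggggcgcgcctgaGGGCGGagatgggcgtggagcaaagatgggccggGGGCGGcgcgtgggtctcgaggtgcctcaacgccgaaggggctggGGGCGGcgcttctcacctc
*Cdkn2a*, downstream start, chr4:89282143-89282442: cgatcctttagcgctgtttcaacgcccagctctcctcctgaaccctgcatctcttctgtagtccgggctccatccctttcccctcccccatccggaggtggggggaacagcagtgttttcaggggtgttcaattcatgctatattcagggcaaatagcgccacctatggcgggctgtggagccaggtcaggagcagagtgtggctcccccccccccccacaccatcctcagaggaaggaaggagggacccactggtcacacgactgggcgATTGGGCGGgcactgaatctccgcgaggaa
*Cdkn2b*, chr4:89310983-89311282: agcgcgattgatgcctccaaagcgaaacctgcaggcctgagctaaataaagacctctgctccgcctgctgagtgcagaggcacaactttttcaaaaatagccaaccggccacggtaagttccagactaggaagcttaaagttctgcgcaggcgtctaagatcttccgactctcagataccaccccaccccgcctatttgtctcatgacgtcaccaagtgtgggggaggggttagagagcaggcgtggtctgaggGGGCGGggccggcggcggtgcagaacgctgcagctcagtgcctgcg
*Cdkn2c*, upstream start, chr4:109666707-109667006: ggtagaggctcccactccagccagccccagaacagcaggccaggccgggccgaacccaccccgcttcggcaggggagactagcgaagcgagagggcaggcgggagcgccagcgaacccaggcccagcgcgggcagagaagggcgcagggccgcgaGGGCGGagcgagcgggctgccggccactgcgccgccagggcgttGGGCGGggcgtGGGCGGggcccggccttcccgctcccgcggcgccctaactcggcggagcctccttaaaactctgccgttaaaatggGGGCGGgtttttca
*Cdkn2d*, chr9:21291160-21291459: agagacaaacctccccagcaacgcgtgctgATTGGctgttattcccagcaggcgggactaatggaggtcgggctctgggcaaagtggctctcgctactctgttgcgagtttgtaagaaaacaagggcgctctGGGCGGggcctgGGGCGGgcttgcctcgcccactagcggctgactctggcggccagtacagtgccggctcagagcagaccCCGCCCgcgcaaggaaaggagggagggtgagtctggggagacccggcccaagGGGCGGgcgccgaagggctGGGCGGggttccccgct
The upstream *Cdkn2a* window held the single E2F match of the 9 windows, letters found in 2.26% of 32851 promoter windows. GC boxes, found in 35.7% of all windows, were matched 3 times there, 4 times in the *Cdkn2c* and 5 times in the *Cdkn2d* window shown, and once in that of *Cdkn2b*. CCAAT letters, found in 37.4% of all windows, were matched once in the downstream *Cdkn2a* window, where they overlap a GC box, and once in that of *Cdkn2d*. The downstream *Cdkn2c* start, not shown, held no GC box and 1 CCAAT match. A match of letters is not a site in use.

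The share of cycling cells also differed with *Cdkn1a*. At the thinned depth, 7.71% (6.77 to 8.74) of CCA MG with no *Cdkn1a* UMI were cycling, against 15.7%, 16.8% and 15.3% of those with 1, 2 and 3 or more. In CCANT MG the shares were 3.61%, 5.93%, 10.1% and 8.00%. For *Cdkn1b* the shares in CCA MG were 8.93%, 8.95% and 11.2% in cells with 0, 1 and 2 UMIs, and 26.1% (14.3 to 41.1) in the 46 cells with 3 or more. In CCANT MG they were 4.05%, 4.62%, 3.73% and 2.70% (0.329 to 9.42). Within the CCA library the share was thus not higher in the bins with fewer *Cdkn1b* UMIs. At a mean of 0.44 such UMIs per cell, these bins sort cells in large part by sampling. They cannot decide whether cells with less *Cdkn1b* were more often cycling.

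Without cycling MG, the CCA to control difference of *Cdkn1a* was 2.86 and that of *Cdkn2c* 1.14 on the log2 scale, against 3.00 and 1.64 in all MG, and *Cdkn1b* was at -1.42 in both. That of *Cdkn2d* was 0.22 without cycling MG against 0.73 with them, and in CCANT over control it changed sign, from 0.14 to -0.09. That of *Cdkn2a* was 1.54 without cycling MG against 4.03 with them. In CCANT over control, *Cdkn2c* was at 0.89 without cycling MG, under the 2-fold bound, against 1.09 with them.

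The CCANT library allowed the 2 sexes to be set side by side within 1 treatment. CCANT MG with Y-linked UMIs held 75.0 CPM of *Cdkn1a* and those with *Xist* 48.9 CPM, 1.54-fold apart, whereas *Cdkn1b* was 92.6 against 118 CPM, 1.27-fold apart in the other direction. *Cdkn1c* was 63.6 against 75.8 CPM, and *Cdkn2b* 10.03 against 7.54 CPM. *Cdkn2c* (26.5 and 25.8 CPM) and *Cdkn2d* (15.1 and 14.9 CPM) had ratios whose intervals include 1. Because pooled retinas of different mice carried the 2 marks, sex cannot be told apart from the animal here. With sex held, *Cdkn1a* was 7.77-fold (7.15 to 8.45) higher and *Cdkn1b* 2.44-fold lower in CCANT than in control MG with Y-linked UMIs, and *Cdkn2c* was 2.18-fold (1.96 to 2.41) higher. Among MG with *Xist*, *Cdkn1b* was 1.39-fold (1.33 to 1.45) higher and *Cdkn1a* 1.59-fold lower in CCANT than in CCA.

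**Figure D4:**
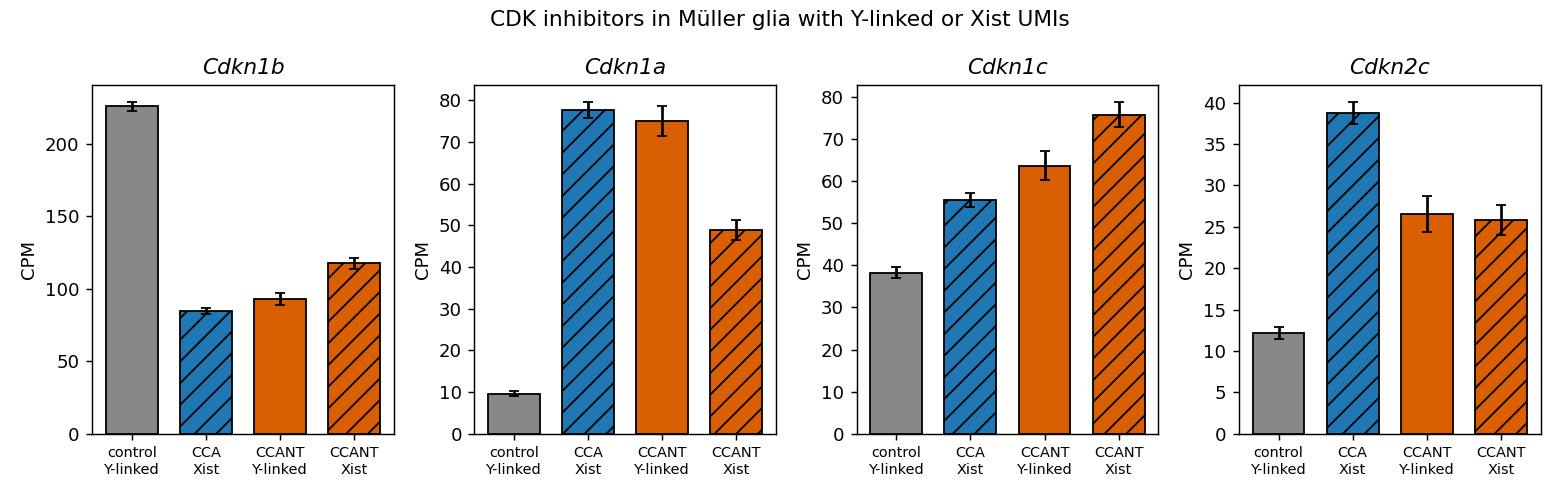
Levels of *Cdkn1b*, *Cdkn1a*, *Cdkn1c* and *Cdkn2c* in CPM, y axes from 0, in MG with Y-linked UMIs (plain bars) and MG with *Xist* UMIs (hatched) of the control (grey), CCA (blue) and CCANT (orange) libraries, with exact 95% Poisson intervals. Within CCANT, *Cdkn1a* is 75.0 against 48.9 CPM and *Cdkn1b* 92.6 against 118 CPM, whereas *Cdkn2c* is 26.5 against 25.8 CPM.

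Among the neuron classes with at least 50 cells in a library (rods, cones, bipolar, amacrine and ganglion cells), rods held the most *Cdkn2c* and ganglion cells the most *Cdkn2d*. These cells came from the same libraries without the filter on tdTomato, in clusters named from markers, and beside each level stands a carry-over level, which is what MG transcripts spilled into those droplets would give, judged from 10 MG markers. Doublets were not removed among them. Horizontal cells (30, 28 and 30 cells) and clusters that stayed unnamed, some with raised amacrine markers, were not measured. *Cdkn2c* was the INK4 gene with the most transcripts in rods, with 43.9 CPM (38.0 to 50.3), 47.2 CPM (42.4 to 52.4) and 47.7 CPM (42.8 to 53.1) in control, CCA and CCANT rods, over carry-over levels of 0.671, 2.12 and 1.66 CPM. Its shares with a UMI at the thinned depth were 19.9%, 22.4% and 21.7% of the 452, 673 and 663 rods that reached that depth. Ganglion cells gave 0.694%, 0% and 0% (0 of 78 and of 52 cells). Ganglion cells held *Cdkn2d* at 63.5, 77.3 and 58.6 CPM, followed among these neurons by amacrine cells at 33.0, 38.6 and 41.8 CPM. The intervals of ganglion and amacrine cells do not overlap in any library. Bipolar cells held 18.7 to 21 CPM of it and rods 13.1, 12.5 and 14.6 CPM. Outside the neurons, the 76 T and NK cells of the control held 56.7 CPM (45.0 to 70.6) of *Cdkn2d*, an interval that overlaps that of control ganglion cells (58.1 to 69.3). The ratio of *Cdkn2c* in rods was 1.08 (0.903 to 1.29) between CCA and control and 1.09 (0.912 to 1.30) between CCANT and control.

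*Cdkn1b* was found in all of these classes and differed between libraries in several. The 144 control ganglion cells held 71.6 CPM (65.9 to 77.7), the 79 CCA cells 20.2 CPM (16.1 to 24.9) and the 52 CCANT cells 20.03 CPM (15.1 to 26.1), at log2 ratios to the control of -1.83 (-2.17 to -1.498) and -1.84 (-2.27 to -1.43). In this class 1.67% of 12188 genes were 2-fold lower in CCA and 1.81% of 11924 in CCANT. The carry-over levels were 14.8, 4.38 and 5.39 CPM, so 56.8, 15.8 and 14.6 CPM lay above them. Of these cells at the thinned depth, 27.1%, 6.41% and 11.5% held a UMI. Amacrine cells held 75.5, 47.0 and 44.8 CPM, or 50.4, 39.6 and 32.1 CPM above carry-over. Bipolar cells held 86.0, 65.7 and 69.0 CPM, but 49.5, 52.8 and 49.8 CPM above carry-over, and rods held 71.6, 61.7 and 71.6 CPM, or 59.4, 57.1 and 64.9 CPM above it. Cones held 104, 54.5 and 74.2 CPM, but 68.5, 51.3 and 62.1 CPM when clusters were drawn at a finer resolution. Which ganglion or amacrine subtypes each library held, and whether the vectors had reached them, was not tested.

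**Figure D5:**
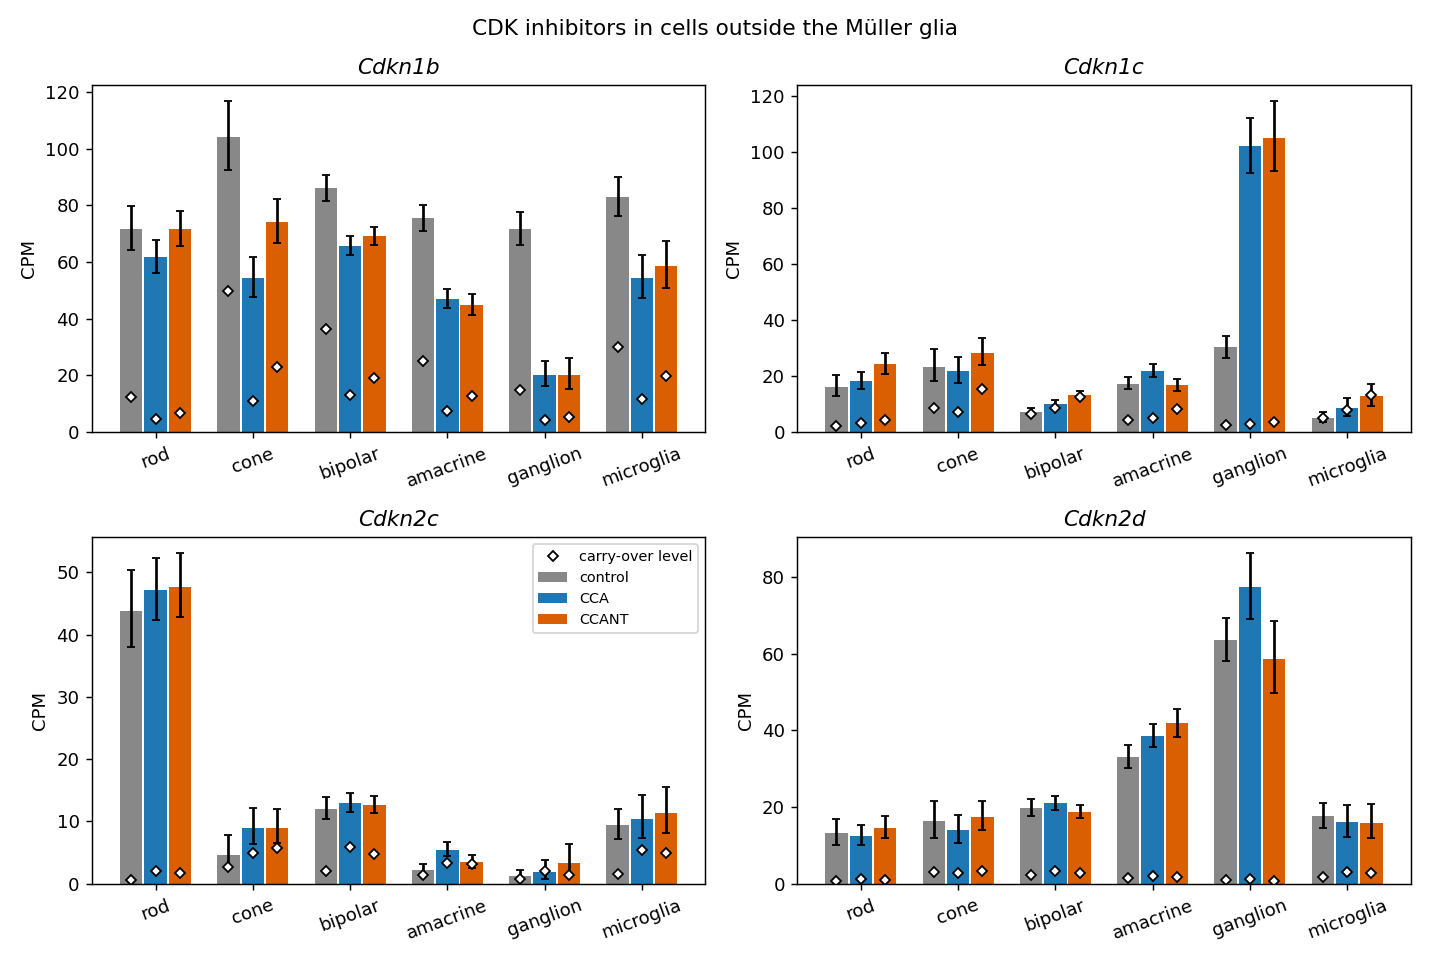
Levels of *Cdkn1b*, *Cdkn1c*, *Cdkn2c* and *Cdkn2d* in CPM, y axes from 0, in 6 classes of cells outside the MG in the control (grey), CCA (blue) and CCANT (orange) libraries, with exact 95% Poisson intervals; diamonds give the level that carried-over MG transcripts would give. *Cdkn2c* stands out in rods at 43.9 to 47.7 CPM, *Cdkn2d* in ganglion cells at 58.6 to 77.3 CPM, and *Cdkn1b* in ganglion cells is 71.6 CPM in the control and 20.2 and 20.03 CPM in the others.

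*Cdkn1c* in control, CCA and CCANT ganglion cells was 30.2, 102 and 105 CPM, 3.38-fold (2.88 to 3.97) higher in CCA and 3.47-fold (2.92 to 4.14) in CCANT than in the control, where 0.386% and 0.579% of genes were 2-fold higher. These transcripts sat in very few cells. The 5 ganglion cells with the most held 84.4%, 97.4% and 95.1% of them, and 1 cell alone held 131, 213 and 223 UMIs. At the thinned depth 2.78%, 5.13% and 9.62% of ganglion cells held a UMI, which is 4, 4 and 5 cells. *Cdkn1a* lay close to carry-over in bipolar cells and rods. In bipolar cells it was 2.60, 14.3 and 9.45 CPM beside carry-over levels of 1.57, 11.8 and 11.2 CPM, and in rods 1.29, 7.95 and 4.21 CPM beside 0.526, 4.26 and 3.90 CPM. Amacrine cells held 13.3, 13.1 and 22.9 CPM, over carry-over levels of 1.08, 6.75 and 7.37 CPM, and ganglion cells 11.6, 13.5 and 20.4 CPM, over 0.636, 4.03 and 3.14 CPM.

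Microglia and macrophages, 1 cluster whose leading genes also include the immunoglobulin genes *Igkc* and *Ighg2c*, held *Cdkn1a* at 46.9 CPM (41.9 to 52.3), 57.3 CPM (49.9 to 65.4) and 47.6 CPM (40.6 to 55.4) in the 3 libraries, over their carry-over levels of 1.29, 10.8 and 11.6 CPM. The same cluster held *Cdkn2a* at 10.1 CPM in the control and at 1.60 and 1.14 CPM in the CCA and CCANT libraries, from 69, 6 and 4 UMIs, beside 3.16% of 12053 and 3.5% of 12141 genes that were 2-fold lower there. It passed the filter on low counts only through the control, so nothing is read from this call. At the thinned depth 3.09% (1.34 to 6.0) of control, 2.60% (0.71 to 6.52) of CCA and 0.61% (0.016 to 3.37) of CCANT cells of the cluster held a UMI, the last from 1 cell. Of the 69 UMIs, 30 were in 1 cell. Pericytes, compared in the control (55 cells) and CCA (98 cells) libraries only, held *Cdkn2a* at 12.5 CPM (5.98 to 22.9) and 17.5 CPM (11.7 to 25.2), from 10 and 29 UMIs. No *Cdkn2a* UMI was found in the 144, 79 and 52 ganglion cells, which allows up to 0.373, 0.711 and 1.11 CPM.

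The partners of the inhibitors were read from lists of genes. Of 12 CDKs, cyclins and *Pcna*, 6 were at least 2-fold higher in CCA than in control MG and none lower, with a median log2 ratio of 0.93, beside 4.05% and 0.602% of all genes and their median of 0.06. They were *Ccnb1* (1572 against 6 UMIs), *Cdk1* (24.6 against 0.624 CPM), *Ccna2* (11.8 against 0.730 CPM), *Ccne2* (6.28 against 1.44 CPM), *Ccne1* (2.66 against 1.03 CPM) and *Pcna* (67.2 against 30.3 CPM), all genes of the entry into S phase, of S phase or of mitosis. Of these, *Ccnb1*, *Cdk1* and *Ccna2* were below 1 CPM in the control and passed the filter on low counts only through the CCA library. This fixed the calls of *Ccnb1* and *Cdk1*, and nothing is read from that of *Ccna2*. In CCANT over control MG 5 of the 12 were 2-fold higher and none lower, beside 3.98% and 1.36% of all genes. They were *Ccnb1*, *Cdk1*, *Ccna2*, *Ccne2* and *Ccnd2*, whereas *Ccne1* and *Pcna* were under the bound, at log2 ratios of 0.863 and 0.605. The D cyclins, *Cdk4*, *Cdk6* and *Cdk2* were past 2-fold in neither direction in CCA over control, and *Ccnd2* was in CCANT over control. *Ccnd1*, cyclin D1, was 213, 138 and 129 CPM in control, CCA and CCANT MG, and reads of the vector's cyclin D1 were not separated from those of the gene. *Ccnd2* was 13.8, 22.3 and 57.7 CPM, with a log2 ratio of 2.07 between CCANT and control, and *Ccnd3* was 186, 180 and 191 CPM. The kinases that INK4 proteins bind, *Cdk4* and *Cdk6*, were 35.5, 50.1 and 47.8 CPM and 74.3, 68.5 and 76.2 CPM, and *Cdk2* was 4.63, 6.75 and 6.30 CPM.

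Of 8 pocket protein and E2F genes, none differed 2-fold between CCA and control MG, and their median log2 ratio was 0.04. The 2 highest ratios among them were of *E2f1* (8.37 and 16.4 CPM) and *Rbl1* (1065 and 1572 UMIs, log2 ratio 0.83), and the 2 lowest of *Rb1* (358 and 283 CPM) and *Rbl2* (52.6 and 47.4 CPM). Of 17 regulators of inhibitor level, 3 were 2-fold higher and none lower, beside the same 4.05% and 0.602% of all genes: *Myc* (0.296 and 1.86 CPM), *Cks1b* (5.69 and 20.9 CPM), which encodes a cofactor in the degradation of p27, and *Ezh2* (44.4 and 94.3 CPM), which encodes a repressor of the *Cdkn2a* locus. *Bmi1* (16.9 and 14.5 CPM), another such repressor, and *Foxo1* (160.3 and 143 CPM), an activator of *Cdkn1b*, were the lowest of that list. *Skp2*, which marks p27 for degradation, was 8.41, 12.2 and 9.72 CPM. *Myc* was below 1 CPM in the control, so its call was fixed by the filter on low counts.

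Of 18 p53 targets other than *Cdkn1a* with enough counts, 6 were 2-fold higher in CCA than in control MG and none lower, beside 4.05% and 0.602% of all genes, with a median log2 ratio of 0.72. *Gdf15* was 0.434 in control against 6.50 CPM in CCA and *Eda2r* 1.71 against 8.98 CPM, whereas *Sesn1* (101 and 102 CPM) and *Perp* (3.19 and 3.37 CPM) had the smallest ratios. *Ccnb1*, *Cdk1*, *Ccna2*, *Myc* and *Gdf15* were below 1 CPM in the control. They passed the filter on low counts only through the CCA library and, where tested, the CCANT library. The filter thus fixed the calls of *Ccnb1*, *Cdk1*, *Myc* and *Gdf15*, and nothing is read from that of *Ccna2*. The list of p53 targets summed to 836, 1684 and 1509 CPM in control, CCA and CCANT MG, of which *Btg2*, also an immediate-early gene, made up 390, 1054 and 934 CPM. In CCA MG the sum was 1437 CPM in cells without a *Cdkn1a* UMI and 2680 CPM in cells with 5 or more. These bins were not thinned either, and the latter cells were deeper and more often cycling. *Trp53* itself was 25.02, 31.7 and 29.8 CPM. Rod transcripts, which can spill into MG droplets, summed over 8 rod genes to 243, 408 and 526 CPM in MG, and none of the 8 was 2-fold higher in CCA than in control MG, against 3 in CCANT.

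The genes whose levels ran most like *Cdkn1a* over 29 sums of cells (classes and cycling or other MG in each library) among 16681 genes were *Maff* (Pearson's r = 0.90), *Ddost*, *Tmed9*, *Cebpb* and *Bax* (r = 0.86). *Maff* was 3.14, 12.8 and 10.8 CPM in MG of the 3 libraries. Most like *Cdkn1b* were *Prss56* (r = 0.83), *Lrch3*, *Sos2*, *Adamts16* and *Adamts19* (r = 0.81), of which *Prss56* was 447, 85.2 and 219 CPM in MG. Between the members, r with *Cdkn1a* was -0.02 for *Cdkn1b* and 0.64 for *Cdkn2b*. The sums share libraries and carry-over, so these values describe likeness only.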

How the data were processed

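Per the labels and the study's methods, the authors used Cell Ranger 6.1.1 on mm10 with tdTomato and GFP added, included intronic reads, and deposited UMI counts for each of 3 libraries (totals of 224515457 control, 219051219 CCA and 222497877 CCANT UMIs) and a joint counts table of 26167 genes and 10926 cells, made after their cell filters and doublet removal. Levels were taken from the library matrices. Those filters (2000 features or more, no more than 100000 UMIs, mitochondrial share up to 15%) were applied to all barcodes, and the cells were clustered (scanpy 1.11.5, leidenalg 0.10.2, resolution 0.5, 20 components, 2000 variable genes) without the 7 genes, sex-linked genes, tdTomato and GFP. Clusters were named from class markers by their median log2 level over the median cluster (at least 1.5, with 3 or more markers raised), under a rule written with the clusters in view. MG were cells of the joint table outside clusters named for another class or mixed, so 40 control, 234 CCA and 426 CCANT cells were left out.

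UMIs were summed per library (numpy 2.4.6, scipy 1.17.1) and given as CPM. Levels carry exact 95% Poisson, ratios exact conditional binomial and shares Clopper-Pearson intervals, which cover counting error only, and a count of 0 was read as up to 3 counts. Counts of 2-fold differences took genes of 1 CPM or more on average and 50 UMIs or more. Shares of cells used cells thinned to 5000 UMIs, without shallower cells, which were 7, 12 and 9 of the MG. Cells with 3 or more UMIs of 4 Y-linked genes and no more than 1 of *Xist*, or the reverse, were given a sex mark. The ratio interval was checked on simulated Poisson counts, the model it assumes. This check does not cover counts that sit in few cells. Named were the 7 members, the CDK and cyclin partners, the 2 highest and 2 lowest CCA to control ratios of each other list except the rod genes, whose single values are not reported here, and the 5 genes most like *Cdkn1a* and *Cdkn1b*. *Ezh2*, *Skp2*, *Trp53*, *Btg2* and cluster genes were named with their values known. The members and lists were chosen with earlier results of these data known. Alternatives were other scalings, MG definitions, depths, bounds for cycling and cluster resolutions. Tamoxifen, harvest and the control shRNA are given as in the labels, whereas the study's text has another tamoxifen dose and start, gives harvest only in weeks after infection, and names the shRNA non-target.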

Additional observations from a re-analysis of the deposited data

Results flagged for a closer look

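*Cdkn2a* went opposite ways in MG and in the cluster of microglia and macrophages, a difference that was not tested. CCA over control was 4.03 on the log2 scale in MG and -2.66 (-4.16 to -1.47) in that cluster, which held 69 UMIs in 261 control, 6 in 154 CCA and 4 in 165 CCANT cells. In both comparisons *Cdkn2a* passed the filter on low counts only through the library where it was high. At the thinned depth 3.09% of control, 2.60% of CCA and 0.61% of CCANT cells of the cluster held a UMI, with overlapping intervals. Of the 69 control UMIs, 30 were in 1 cell and 69.6% in 5 cells, and the cluster's leading genes include immunoglobulin genes. The part of those cells in the difference was not tested.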

How the results depend on the processing

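No paired analysis was possible because each group is a single library. *Cdkn1a* in CCA over control (3.00, log2) was 2.86 without cycling MG, 3.25 without the 1% of MG with the most UMIs of the gene and 2.58 among MG in the middle immediate-early range of the control. In CCANT over control (2.67) it was 2.51, 2.87 and 2.10 under these, 2.51 as a mean over cells and 2.95 with Y-linked CCANT MG only. *Cdkn1b* was -1.49 and -1.13 with median-of-ratios scaling (-1.42 and -1.09 by CPM), and in CCANT -1.29 with Y-linked MG only and -0.97 in the immediate-early range. That range was added after seeing the data. With at least 2 proliferation UMIs as the bound, cycling over other MG was 1.07 in CCA and 1.29 in CCANT for *Cdkn1a*, 2.28 and 2.15 for *Cdkn2c*, 2.46 and 2.29 for *Cdkn2d*, 1.25 and 1.03 for *Cdkn1c* and -0.44 in CCANT for *Cdkn1b*. With MG thinned before the split it was 0.75 in CCA for *Cdkn1a*, 0.29 and -0.064 for *Cdkn1b*, and 1.82 and 1.70 for *Cdkn2c*. The thinned split also moved *Cdkn2b*, from 0.29 to 1.26 in CCA and from 0.03 to 1.24 in CCANT, on few UMIs. *Cdkn2d* in CCANT over control changed sign without cycling MG, at -0.089. Without a filter on low counts, 2480 genes were 2-fold higher and 783 lower in CCA, and 2128 and 998 in CCANT. All cells of the joint table, its own counts and clusters named MG alone left every ratio in MG within its interval. The cause of these shifts was not tested. Of 140 class levels, 10 moved at the finer resolution, all in cones. Of the shares of cells of a class with a UMI, 66 of 140 moved at 3000 UMIs, and of the levels in MG binned by *Cdkn1b* or GFP UMIs, 16 of 93 moved at 8000 UMIs. Counts limit *Cdkn2a* and *Cdkn2b* most.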
